A study of Mus musculus with 12 samples.

Results

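The genes described here are the collagen chains of the mouse, taken as every row of the gene count table whose Ensembl identifier carries a symbol made of Col, a number, the letter a and a number, with nothing after it. This rule found 44 genes among 54232, and it used no measured value. B16F10, a mouse melanoma line of C57BL/6 origin, was profiled by mRNA sequencing in 12 libraries of 4 groups. WT (3 libraries) was the cultured line with no treatment. The relapsed lines ITF1, Rel and ITM (1 library each) came from tumors that B16F10 formed under the skin of mice aged 6 weeks and that grew back after immunotherapy, and their sorted cells were grown to confluency before RNA was extracted. Tumor (libraries 1, 3 and 4) also came from sorted cells of such relapsed tumors, but the RNA was taken at once, with no culture between. Lyso (3 libraries) was B16F10 given lysosomes from T cells for 48 hours according to the labels, whereas the study's methods describe a shorter exposure to granules on a coated plate of low adherence. Every group therefore shares the same parental melanoma line, and the Tumor group alone was never returned to culture after growth in a mouse. The markers used for the sort are not given in the sources used here.

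Collagens are the main structural proteins of the extracellular matrix. Each molecule is a triple helix of chains, and a chain can wind into that helix because glycine opens each triplet of residues along its helical domain. Fibrillar chains (types I, III, V and others) have a long uninterrupted helix and build fibers, type IV chains form the sheet of basement membranes, type VI forms beaded filaments around cells, and the fibril-associated FACIT chains sit on fibers made by others. In skin and in tumors grown under it, fibrillar and type VI collagens are made chiefly by fibroblasts and related stromal cells, while basement membrane chains are also made by epithelial, endothelial and tumor cells.

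The coding sequence of a collagen chain shows the repeat directly, and the chains below are those on which the results turn. Each line gives 12 successive triplets (108 bases, 5′ to 3′) of the GENCODE vM21 coding sequence, with the glycine codon of every triplet in capitals. The stretches cover codons 164 to 199 of Col3a1, 97 to 132 of Col1a2, 43 to 78 of Col4a1 and 271 to 306 of Col6a2.
Col3a1: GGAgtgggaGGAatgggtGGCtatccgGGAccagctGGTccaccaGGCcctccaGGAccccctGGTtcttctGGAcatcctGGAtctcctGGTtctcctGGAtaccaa
Col1a2: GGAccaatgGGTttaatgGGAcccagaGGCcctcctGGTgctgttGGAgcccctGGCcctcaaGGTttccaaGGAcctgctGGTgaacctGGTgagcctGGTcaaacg
Col4a1: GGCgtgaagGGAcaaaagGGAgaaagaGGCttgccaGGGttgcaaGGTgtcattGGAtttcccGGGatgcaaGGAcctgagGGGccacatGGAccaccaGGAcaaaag
Col6a2: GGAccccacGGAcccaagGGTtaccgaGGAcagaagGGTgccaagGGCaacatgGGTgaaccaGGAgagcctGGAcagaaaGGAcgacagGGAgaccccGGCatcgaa

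The types differ in how far this repeat runs without a break. In the 11 fibrillar genes the longest unbroken run was 216 to 344 triplets, and it was 37 to 87 triplets in the 6 type VI genes and 32 to 113 in the 9 FACIT genes. The 6 type IV genes each had 23 to 27 separate runs, the longest being only 39 to 66 triplets. A break in Col4a1 is shown here because it marks the difference from the fibrillar chains: between codons 206 and 243, 6 triplets are followed by 2 codons outside the pattern (ttccaa) and then by 6 further triplets.
Col4a1 break: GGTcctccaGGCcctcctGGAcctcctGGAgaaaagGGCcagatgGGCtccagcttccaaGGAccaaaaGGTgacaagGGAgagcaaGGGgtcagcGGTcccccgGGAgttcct

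The libraries held between 1667398 and 16402629 reads counted on genes. WT 1 and WT 2 were the shallowest at 1667398 and 2350129, WT 3 had 16384021, and the Tumor libraries had 3102442 to 5049496. A floor of 3 counts is used below, at or under which a gene is taken as not detectable in that library. Levels are given as CPM, the usual scaling of counts to library size, after TMM adjustment. The floor corresponds to 1.70 CPM in WT 1, 1.26 in WT 2, 0.177 in WT 3, 0.179 to 0.282 in the other cultured libraries and 0.603 to 0.974 in Tumor. All 10 melanocyte marker genes examined were above that floor in each of the 12 libraries. Nothing in the labels says that the libraries of WT or Lyso came from separate cultures, or those of Tumor from separate mice. The p-values therefore measure the spread between libraries, which may be technical.

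Collagen transcripts took a far larger share of the counts in the cells sorted from tumors than in the cultured cells. In WT 1, 2 and 3 the 44 genes together took 0.0207%, 0.0273% and 0.0327% of all gene counts, in ITF1, Rel and ITM 0.0345%, 0.0248% and 0.0232%, in Lyso 0.0262%, 0.0303% and 0.0298%, and in Tumor 1, 3 and 4 1.27%, 1.001% and 0.871%. The summed level was 260 ± 60.8 CPM in WT (mean ± SD, n = 3), 272 ± 58.0 in the relapsed lines, 298 ± 15.9 in Lyso and 10595 ± 2014 in Tumor. The 3 cultured groups overlapped one another, and every Tumor library lay above all 9 cultured ones. Because these are bulk samples, more cells of a collagen-producing type and more RNA per cell cannot be told apart.

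**Figure D1:**
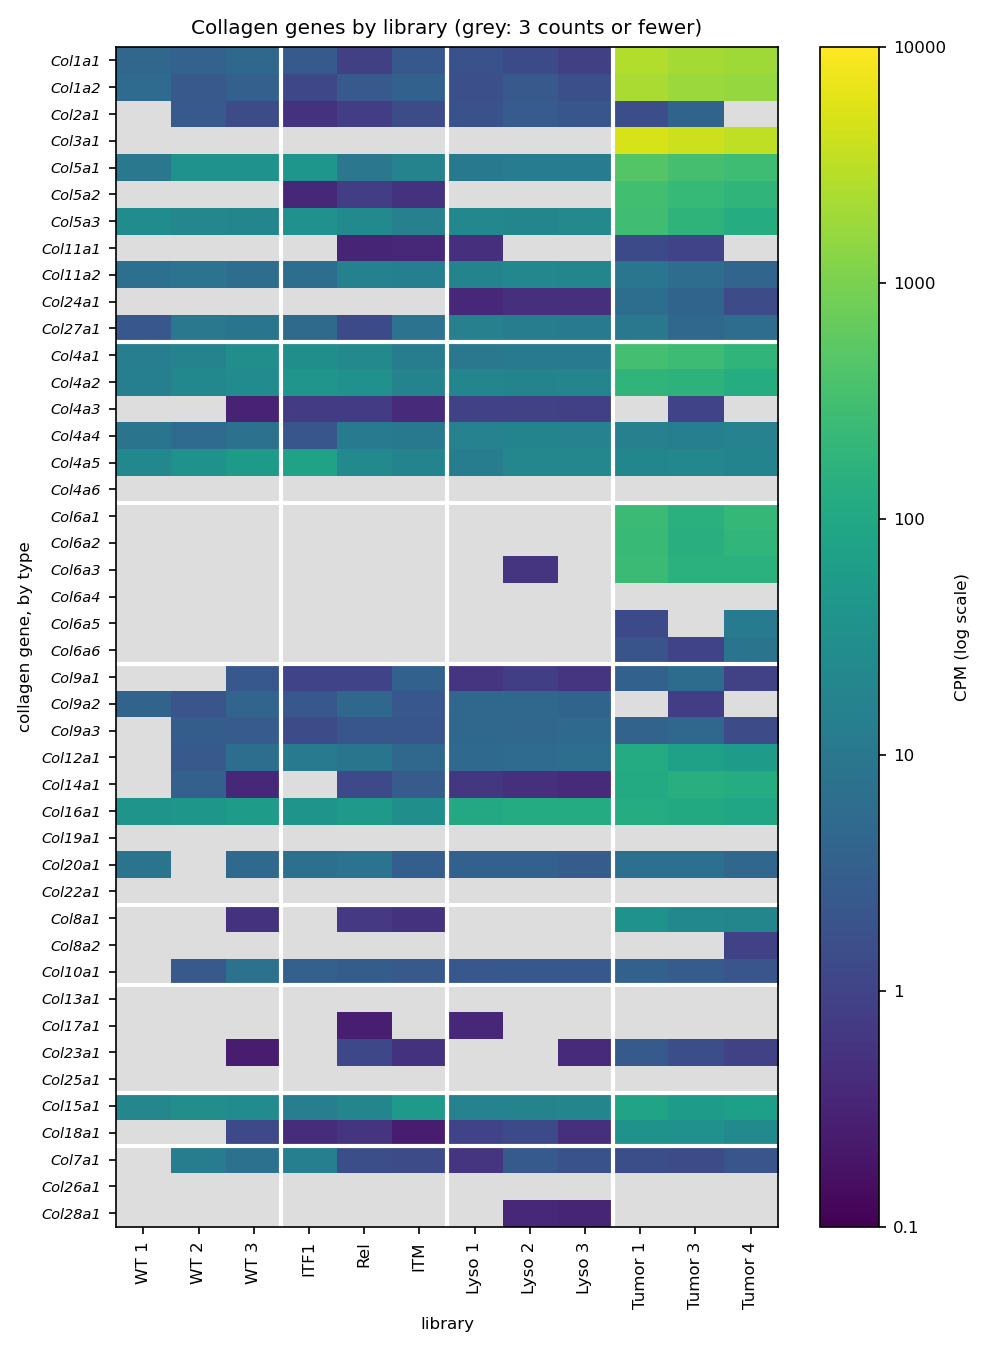
Heatmap of the level of all 44 collagen genes (rows, grouped by type) in the 12 libraries (columns), as CPM on a log color scale. Gray cells are values of 3 counts or fewer. The Tumor columns are the brightest for Col1a1, Col1a2 and Col3a1 and are filled for Col6a1, Col6a2 and Col6a3, and 13 genes are gray in all 9 cultured columns.

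Of the 44 genes, 13 were above the floor in all 3 WT libraries, 23 in all 3 relapsed lines, 24 in all 3 Lyso libraries and 29 in all 3 Tumor libraries. Depth differs between these groups, and its part in the numbers was not tested. At or under the floor in each of the 9 cultured libraries were Col3a1, Col4a6, Col6a1, Col6a2, Col6a4, Col6a5, Col6a6, Col8a2, Col13a1, Col19a1, Col22a1, Col25a1 and Col26a1, which is 13 genes. In Tumor, Col19a1 and Col26a1 had 0 counts in every library. With level taken per kilobase of the transcript with the longest coding sequence, so that genes can be set against one another, the leading collagens of WT were Col16a1 at 8.83 ± 1.52 CPM per kb, Col4a5 at 5.64 ± 2.29 and Col15a1 at 4.82 ± 0.849. The range of Col4a5 over the libraries overlaps that of each of the others. The relapsed lines had the same 3 genes in front (Col16a1 7.64 ± 1.69, Col4a5 5.98 ± 4.82 and Col15a1 5.33 CPM per kb). In Lyso Col16a1 stood alone at 22.2 ± 1.54 CPM per kb, ahead of Col11a2 at 3.66 ± 0.314. Tumor was led by Col3a1 at 746 ± 141, Col1a1 at 375 ± 64.6 and Col1a2 at 355 ± 66.2 CPM per kb, and the spreads of the last pair overlap.

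The makeup of the collagen counts changed accordingly, here without correction for length. Fibrillar genes supplied 25.6% to 31.3% of the collagen counts of the WT libraries and 85.0% to 86.4% of those of Tumor. Col1a1, Col1a2 and Col3a1 alone were 2.34% to 5.22% in WT and 77.2% to 79.0% in Tumor. Type IV genes made up 30.1% to 36.6% in WT and 3.92% to 4.69% in Tumor, although their summed level was higher in Tumor (347 to 539 CPM against 58.8 to 116 CPM). In Lyso the FACIT genes supplied 45.1% to 46.0% against 21.2% to 28.1% in WT, and Col16a1 alone was 38.1% to 39.5% against 16.4% to 20%.

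**Figure D2:**
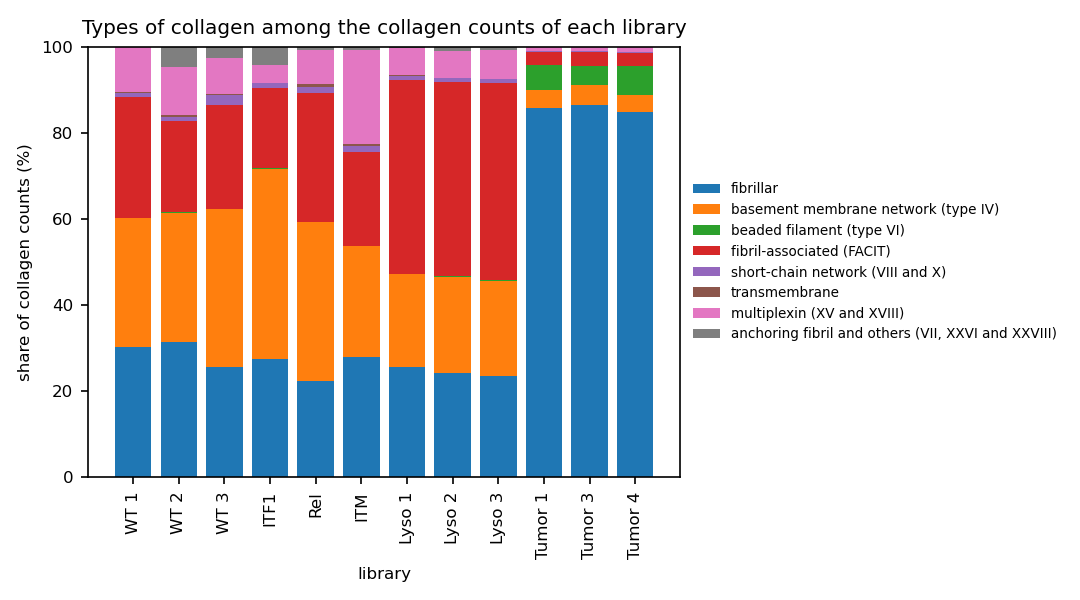
Stacked bars of the percentage of collagen counts in each of the 12 libraries that fell to each collagen type. Fibrillar genes fill 85.0% to 86.4% of the Tumor bars and 22.2% to 31.3% of the cultured bars, and the FACIT segment is widest in the Lyso bars.

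Tumor was compared with WT to ask how cells sorted from relapsed tumors differ from the cultured line. No library came from an untreated tumor, so growth in a mouse, immunotherapy, relapse and sorting cannot be told apart in this comparison. Of the 44 genes, 31 passed the filter on low counts and were tested by edgeR's quasi-likelihood test over 14924 genes, with a call where the p after Benjamini-Hochberg adjustment was under 0.05 and the log2 fold change was beyond 1 in either direction. In Tumor 19 collagen genes were higher and 1 was lower than in WT, where 8.56% of all tested genes were called higher and 2.2% lower. At an unadjusted p under 0.05 there were 22 of 31, where 32.1% of all tested genes were. Col3a1, Col5a2, Col6a1, Col6a2, Col6a3, Col6a6, Col8a1, Col23a1 and Col24a1, which is 9 of the 31, passed the filter only through the Tumor libraries, so 8 calls among them carry no weight as a count. All 9 are also among the genes with an unadjusted p under 0.05, so that count cannot be set against the share of all genes. Among the 22 genes that also passed without Tumor, 11 were higher, 1 was lower and 10 did not pass the test. The WT libraries also serve as the controls of the Lyso and relapsed line comparisons below.

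Type I and type III collagen, the bulk of dermal fibers, reached the highest levels in Tumor. Col1a1 encodes the chain present in a pair of copies per type I molecule (chromosome 11, from 94936224 to 94953042, plus strand, GRCm38), and it stood at 4.52, 3.79 and 4.71 CPM in WT 1 to 3, at 2.61, 0.869 and 2.33 in ITF1, Rel and ITM, at 1.79, 1.30 and 0.890 in Lyso, and at 2652, 2093 and 1919 in Tumor 1, 3 and 4. Tumor exceeded WT by 8.95 ± 0.36 on the log2 scale (SE, adjusted p = 1.03e-08, edgeR). Its partner chain Col1a2 (chromosome 6, from 4504814 to 4541544, plus strand) had 5.65, 2.53 and 3.42 CPM in WT, 1.23, 2.47 and 3.59 in the relapsed lines, 1.69, 2.51 and 1.70 in Lyso, and 2296, 1781 and 1617 in Tumor. Its log2 fold change was 9.04 ± 0.37 (adjusted p = 1.18e-08, edgeR). Col3a1 (chromosome 1, from 45311538 to 45349706, plus strand), which forms type III as a homotrimer beside type I, had a single count in the 9 cultured libraries, in WT 3, and 4931, 4151 and 3364 CPM in Tumor. Tumor to WT was a ratio of 86063 with a counting interval of 15446 to 3399370 (50158 counts against 1), and Tumor was at least 60728-fold above the relapsed lines, whose 3 libraries held 0 counts.

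Type V chains, which enter type I fibrils and limit their diameter, split in culture and rose together in Tumor. Col5a1 was present throughout, at 10.2, 36.7 and 36.2 CPM in WT, 41.6, 9.56 and 17.5 in the relapsed lines, 10.5, 12.6 and 12.5 in Lyso and 468, 337 and 285 in Tumor (log2 fold change Tumor to WT 3.63 ± 0.50, adjusted p = 0.000298, edgeR). Col5a3 had 27.1, 21.1 and 19.4 CPM in WT, 34.5, 23.6 and 15.4 in the relapsed lines, 21.2, 19.9985 and 23.0 in Lyso and 290, 177 and 124 in Tumor (3.17 ± 0.34, adjusted p = 4.24e-05, edgeR). Both were well expressed before any tumor growth, which sets them apart from the third type V chain. Col5a2 was under the floor in all WT libraries (0, 0 and 0.118 CPM) and had 0.383, 0.802 and 0.538 CPM in the relapsed lines. It had 0, 0 and 0.0809 CPM in Lyso and 307, 219 and 184 in Tumor, a Tumor to WT ratio of 2421 with a counting interval of 670 to 20001. Col5a2 lies tail to tail with Col3a1 on chromosome 1, with 24614 bases between the gene bodies. Per kilobase, Col5a1 and Col5a2 came close to balance in Tumor, at ratios of 1.20, 1.21 and 1.22, whereas Col5a1 led by 85.4, 9.39 and 25.6 in ITF1, Rel and ITM. The ratios of these lines rest on 5, 12 and 9 counts of Col5a2. Their exact 95% counting intervals were 36.4 to 264, 5.21 to 18.6 and 13.3 to 56.5.

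The minor fibrillar genes did not move as a block. Col24a1 had 0.565, 0 and 0.118 CPM in WT, 0, 0 and 0.0598 in the relapsed lines, 0.377, 0.465 and 0.485 in Lyso and 6.49, 4.02 and 1.41 in Tumor, a ratio to WT of 26.3 (8.46 to 132, 46 counts against 3), and it was called higher. Col2a1, the collagen of cartilage, gave a log2 fold change of 0.45 (adjusted p = 0.65), Col11a2 one of -0.10 (0.898) and Col27a1 one of -0.17 (0.881), and their libraries overlapped those of WT. Col11a1 was not tested and had 12 counts in Tumor against 2 in WT, a ratio of 10.3 (2.29 to 94.7).

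Type VI was essentially absent from culture and came up in Tumor. Col6a1, Col6a2 and Col6a3 encode the chains of the common heterotrimer, and the first pair lie in tandem on chromosome 10. Col6a2 had 0 counts in all 9 cultured libraries and 234, 141 and 199 CPM in Tumor, at least 1298-fold above WT and at least 2747-fold above the relapsed lines. Col6a1 had 0, 0 and 0.118 CPM in WT, 0, 0 and 0.0598 in the relapsed lines, 0.0941, 0 and 0.162 in Lyso and 255, 149 and 211 in Tumor, a ratio to WT of 2079 (575 to 17175). Col6a3 had 0, 0.422 and 0.0589 CPM in WT, 0.0767, 0 and 0.0598 in the relapsed lines, 0, 0.558 and 0.0809 in Lyso and 253, 158 and 159 in Tumor, a ratio of 1923 (532 to 15892). Within Tumor, Col6a1 and Col6a2 were level per kilobase, at ratios of 1.05, 1.02 and 1.02, while Col6a3 stood at 0.422, 0.439 and 0.312 of Col6a2.

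Col6a5 and Col6a6, long chains that can stand in for the product of Col6a3, had another pattern among the Tumor libraries. Col6a6 held 6, 5 and 35 counts in Tumor 1, 3 and 4 (1.95, 1.005 and 8.23 CPM) against a single count in WT, a ratio of 78.9 (13.5 to 3184). Col6a5 held 4, 3 and 46 counts there and 0 in culture, at least 30.3-fold above WT, and it did not pass the filter. Tumor 4 was the high library for both, although it was the middle library for Col6a1, Col6a2 and Col6a3. Col6a6 was called higher, but without WT 3 its adjusted p was 0.093. Col6a4 had 4 counts in all Tumor libraries and 0 in WT.

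Of the 6 basement membrane genes 2 were higher in Tumor, 2 did not pass and 2 were not tested. Col4a1 (chromosome 8, from 11198423 to 11312826, minus strand) had 13.6, 16.9 and 30.0 CPM in WT, 31.1, 22.5 and 12.8 in the relapsed lines, 9.89, 11.1 and 10.8 in Lyso and 315, 271 and 189 in Tumor. Tumor exceeded WT by 3.55 ± 0.34 on the log2 scale (adjusted p = 1.68e-05, edgeR). Col4a2 starts 21 bases away on the other strand (from 11312805 to 11449287) and had 14.7, 21.9 and 25.6 CPM in WT, 40.2, 34.5 and 16.9 in the relapsed lines, 20.1, 18.1 and 19.2 in Lyso and 189, 168 and 123 in Tumor (2.88 ± 0.30, adjusted p = 3.47e-05). These chains form the common type IV molecule. The chains of the restricted type IV networks, known from kidney, lung and inner ear, did not pass the test or were too low for it. Col4a4 was at 8.48, 5.48 and 7.71 CPM in WT and 14.9, 14.7 and 16.7 in Tumor, with no overlap but a log2 fold change of 1.08 that did not pass (adjusted p = 0.118). Col4a5 was at 22.0, 36.7 and 51.9 CPM in WT and 20.1, 21.7 and 17.6 in Tumor (-0.96, adjusted p = 0.193). Col4a3 and Col4a6, the head-to-head partners of Col4a4 and Col4a5, were too low to be tested.

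Among the FACIT genes 3 were higher and 1 was lower. Col12a1 and Col14a1, whose products bind to type I fibrils, had 0, 2.53 and 6.54 CPM and 1.13, 3.37 and 0.353 CPM in WT. In Tumor they reached 120, 74.0 and 55.7 CPM and 114, 134 and 122 CPM. Their log2 fold changes were 4.22 ± 0.53 (adjusted p = 0.000166) and 7.11 ± 0.71 (adjusted p = 2.55e-05). Without WT 3 they were 5.84 and 5.68, and without WT 2 that of Col14a1 was 8.08. In the other cultured libraries Col12a1 ran from 4.61 to 12.3 CPM and Col14a1 from 0.0767 to 2.69 CPM, so that both stayed far under Tumor. Col16a1, a FACIT chain of skin and smooth muscle, led the levels per kilobase in culture and was at 39.0, 44.3 and 54.6 CPM in WT and 38.7, 49.1 and 31.5 in the relapsed lines, and it had 106, 119 and 121 in Lyso and 123, 108 and 90.5 in Tumor (Tumor to WT 1.19 ± 0.18, adjusted p = 0.000648). Tested against a change of at least the fold threshold (glmTreat), Col16a1 did not pass (adjusted p = 0.543).

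Col9a2, a chain of the cartilage FACIT type IX, was the only collagen gene called lower in Tumor. It had 3.96, 2.11 and 4.24 CPM in WT, 2.30, 4.75 and 2.27 in the relapsed lines, 4.99, 4.74 and 4.04 in Lyso, and 0.325, 0.804 and 0.470 in Tumor. The Tumor values rest on 1, 4 and 2 counts, and the log2 fold change was -2.66 ± 0.52 (adjusted p = 0.00342). Its partners Col9a1 (0.96, adjusted p = 0.374) and Col9a3 (0.38, adjusted p = 0.575) did not pass.

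Col18a1 and Col15a1, which hold basement membranes to the matrix beneath and carry an endostatin-type domain, were both higher. Col18a1 had 0, 1.26 and 1.30 CPM in WT, 0.460, 0.602 and 0.239 in the relapsed lines, 1.04, 1.30 and 0.485 in Lyso and 35.4, 33.2 and 25.1 in Tumor (4.79 ± 0.44, adjusted p = 1.06e-05, and 5.41 without WT 3). Col15a1 had 20.3, 29.1 and 25.4 CPM in WT, 13.5, 19.3 and 49.96 in the relapsed lines, 16.5, 17.6 and 19.8 in Lyso and 81.5, 59.3 and 65.6 in Tumor (1.45 ± 0.38, adjusted p = 0.0193). The call of Col15a1 was lost without WT 3 (adjusted p = 0.0754), without Tumor 1 (0.0684) and by glmTreat (0.473). Col8a1, a short-chain collagen of vessel walls, had 0, 0 and 0.530 CPM in WT, 0.230, 0.669 and 0.538 in the relapsed lines, 0.282, 0.279 and 0 in Lyso and 35.1, 21.7 and 19.7 in Tumor (5.95 ± 0.60, adjusted p = 2.83e-05). That fold rests on WT 3 alone, since WT 1 and WT 2 held 0 counts, and Col8a1 passed the filter only through Tumor. Col7a1, the anchoring fibril collagen, varied within WT (0, 12.6 and 7.66 CPM) and had 1.62, 1.41 and 2.12 CPM in Tumor (-2.06, adjusted p = 0.221), and the transmembrane Col23a1 gave 2.74 (adjusted p = 0.092). Col10a1, of growth plate cartilage, and the FACIT gene Col20a1 overlapped WT, with log2 fold changes of -0.74 (adjusted p = 0.256) and 0.35 (0.696). The 13 genes not tested were Col4a3, Col4a6, Col6a4, Col6a5, Col8a2, Col11a1, Col13a1, Col17a1, Col19a1, Col22a1, Col25a1, Col26a1 and Col28a1. Among them Col8a2 had 7 counts in Tumor against 2 in WT, a ratio of 6.01 (1.14 to 59.2).

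**Figure D3:**
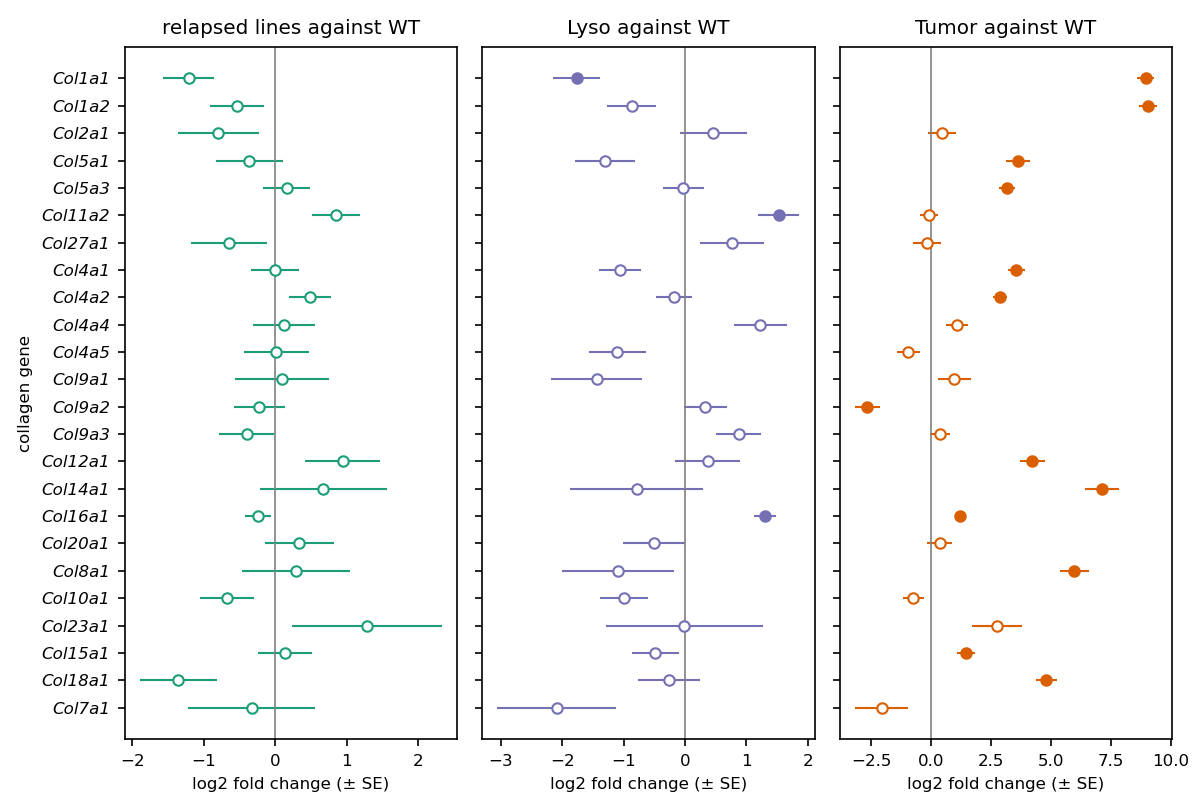
Log2 fold change (x axis) with its standard error (bars) for the 24 tested collagen genes with more than 3 counts in WT, in Tumor, the relapsed lines and Lyso, each against WT. Filled points passed the test: those of Tumor lie mostly far to the right, none of the relapsed lines is filled, and 3 of Lyso are.

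Tumor was also set against the relapsed lines, which share its history of relapse but were cultured afterwards. The 20 calls of this comparison were 19 higher and 1 lower, where 8.36% of all tested genes were called higher and 2.31% lower. Again 8 of the higher calls were of genes that passed the filter only through Tumor, and among the 22 others 11 were higher and 1 was lower. Tumor exceeded the relapsed lines by 10.16 on the log2 scale for Col1a1, 9.57 for Col1a2, 8.64 for Col5a2, 3.99 for Col5a1, 3.55 for Col4a1, 2.39 for Col4a2 and 1.43 for Col16a1, and Col9a2 fell by 2.44 on the log2 scale. Both comparisons use the same Tumor libraries. Col15a1 was higher by 1.31 (adjusted p = 0.0227), but the call was lost without Rel (0.0794), Tumor 1 (0.0872) or Tumor 4 (0.0536), and its log2 fold change was 0.98 without ITF1 and 2.05 without ITM. That of Col5a1 was 4.74 without ITF1. Without ITF1 a further gene, Col11a2, was called lower, and without ITM it was Col4a5, which made 2 lower calls in each case.

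Summed fibroblast markers, like summed collagen, were higher in Tumor than in every cultured library. In Lyso they differed, since the marker sum lay above every WT library and summed collagen overlapped WT. The 10 fibroblast markers examined summed to 108 to 167 CPM in WT, 73.4 to 154 in the relapsed lines, 179 to 210 in Lyso and 1057 to 1133 in Tumor. In Tumor against WT 9 of 10 were called higher, where 8.56% of all tested genes were. Of these 10, Dcn, Lum, Fap, Mfap5 and Dpt passed the filter only through Tumor, and 4 of the other 5 were higher. Dcn, Lum, Thy1, Mfap5 and Dpt were at or under the floor in every WT library, and Dcn, the proteoglycan decorin that coats collagen fibrils, reached 285 ± 14.3 CPM in Tumor. Endothelial markers summed to 0 to 1.06 CPM in WT and 26.3 to 33.8 in Tumor (7 of 10 higher, all 7 passing the filter only through Tumor, and 9 of 10 at or under the floor in WT), myeloid markers to 12.4 to 29.3 and 47.1 to 69.8 (5 of 10 higher, 3 of them passing only through Tumor), and pericyte and smooth muscle markers to 26.1 to 42.0 and 61.8 to 81.8 (3 of 10 higher, 2 of them likewise). T cell markers (1.26 to 6.78 against 3.42 to 9.17), keratinocyte markers (3.96 to 4.71 against 6.82 to 8.70) and melanocyte markers (19782 to 28408 against 20517 to 22627) had no call. Of the 10 genes in each list, 7 endothelial, 7 myeloid, 7 pericyte and smooth muscle, 3 T cell and 2 keratinocyte markers were tested. All 10 melanocyte markers were tested. The part of these other cell types in the collagen levels of Tumor was not tested.

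Genes that build and handle collagen were described from lists of textbook roles. Their counts are to be read beside the share of all tested genes called in Tumor against WT, 8.56% higher and 2.2% lower. Of the 7 cross-linking genes 6 were higher in Tumor than in WT, but Lox, Loxl1, Loxl4 and Pxdn passed the filter only through Tumor, and of the other 3 genes Loxl2 and Tgm2 were higher. Lox and Loxl1 oxidize lysines for fiber cross-links, and Pxdn links type IV networks. Lox stood at 178 ± 98.8 CPM in Tumor and 0 in WT, Loxl1 at 98.4 ± 11.3 against 0.0196, Pxdn at 49.5 ± 16.4 against 0 and Loxl2 at 92.7 ± 18.4 against 3.53 ± 0.862 (Loxl2 log2 fold change 4.80 ± 0.72, adjusted p = 0.000563). Of the 12 genes of export and propeptide removal 10 were tested and 2 were higher. These were Adamts2, which passed the filter only through Tumor and trims the amino end of procollagen (62.7 ± 4.002 CPM against 0.0196), and Bmp1, which trims the other end (112 ± 20.1 against 24.6 ± 11.1, adjusted p = 0.00132). Without Adamts2 it was 1 of 9, near the share over all genes.

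In chain modification and folding 5 of 16 tested genes were higher and none was lower, where 8.56% of all tested genes were called higher and 2.2% lower. Without P4ha3 and P3h4, which passed the filter only through Tumor, it was 3 of 14, with a median log2 fold change of 0.48 against 0.00 over all genes. The 5 were the prolyl hydroxylase subunits P4ha2 (67.6 ± 5.08 CPM against 34.5 ± 14.1) and P4ha3 (8.12 ± 2.06 against 0), the lysyl hydroxylase Plod2 (252 ± 20.8 against 99.1 ± 4.30), P3h4 (5.14 ± 0.583 against 0.0785) and the folding factor Fkbp10 (87.9 ± 16.7 against 21.7 ± 4.08). Serpinh1, the collagen chaperone HSP47, did not follow the collagens: it had 1047 ± 179 CPM in Tumor and 990 ± 135 in WT, a log2 fold change of 0.08 (adjusted p = 0.784). Colgalt2 was at or under the floor in each group. Among receptors and uptake genes 3 of 8 tested were higher and 1 was lower, or 2 of 7 higher and 1 lower without Itga11. The uptake receptor Mrc2 rose from 1.10 ± 0.516 to 36.2 ± 6.89 CPM (5.31 ± 0.30, adjusted p = 1.78e-07), and Itga11 and Itga2, collagen-binding integrin subunits, were also higher, Itga11 passing the filter only through Tumor. Ddr1, a receptor kinase that binds collagen, was lower, at 98.1 ± 5.84 against 219 ± 89.9 CPM (-1.17 ± 0.26, adjusted p = 0.00755). Of 13 tested basement membrane partners 6 were higher, or 5 of 12 without Lama2, which passed the filter only through Tumor. The smallest p was that of the linker Nid1, at 231 ± 32.2 against 37.8 ± 4.96 CPM (2.62 ± 0.20, adjusted p = 1.84e-06), and the laminin chains Lama2, Lama4 and Lamb1 were among the others. None of the genes of these 5 lists passed in the relapsed lines or in Lyso against WT.

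Lyso was compared with WT to see how cells given T cell material differ from untreated ones. The study's methods describe the coated plate of low adherence for the granule cultures and not for WT. The plate and the T cell material therefore cannot be told apart in this comparison. By edgeR 2 collagen genes were higher and 1 was lower in Lyso, where 2.43% of all tested genes were called higher and 0.576% lower. At an unadjusted p under 0.05 there were 10 of 31, where 18.7% of all tested genes were. All 10 were among the 22 genes that also passed the filter without Tumor. Col16a1 (values above) rose by 1.30 ± 0.18 on the log2 scale (adjusted p = 0.00114), and every Lyso library lay above every other cultured one. Col11a2, a fibrillar chain of cartilage, had 6.78, 8.01 and 6.24 CPM in WT, 6.44, 15.8 and 14.5 in the relapsed lines, 18.3, 21.6 and 19.3 in Lyso and 9.09, 6.23 and 4.23 in Tumor (Lyso to WT 1.53 ± 0.34, adjusted p = 0.0216). Col1a1 was lower in Lyso by -1.76 ± 0.39 (adjusted p = 0.0202), on 8 to 80 counts per WT library and 11 to 19 per Lyso library. Of these, Col16a1 kept its call in each fit that left out 1 library, but with the deep WT 3 as the only control, a fit in which the other groups supply the spread and the lone library is assumed to vary like them, its log2 fold change was 1.07 and its adjusted p 0.0510, and glmTreat gave 0.680. Col11a2 lost its call without WT 3 (0.122) or without Lyso 1, 2 or 3 (0.0582, 0.0786 and 0.0644). Col1a1 lost it without WT 3 (0.184), Lyso 2 (0.0741) or Lyso 3 (0.0975).

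Other genes in Lyso did not pass the test. Col4a1 lay below WT in every library, with a log2 fold change of -1.06 (adjusted p = 0.103). Col4a4 was at 16.7, 18.3 and 16.3 CPM against 5.48 to 8.48 in WT (1.23, adjusted p = 0.144), and Col9a3 at 4.61, 4.56 and 5.18 against 1.70 to 2.95 (0.87, adjusted p = 0.229). Col4a5 gave -1.10 (0.223), Col5a1, whose libraries overlapped WT, -1.30 (0.17) and Col1a2 -0.87 (0.259). Serpinh1 had 628 ± 22.6 CPM in Lyso, a log2 fold change of -0.66 (adjusted p = 0.0385), which is under the fold threshold. Genes of the marker lists differed here too. T cell markers summed to 10.4 to 11.6 CPM against 1.26 to 6.78 in WT, and of the 3 tested Cd8a and Cd8b1 were higher. Of the 10 listed, 9 were at or under the floor in every WT library. In Lyso 2 were so in every library (Cd3g and Cd4). Ptprc, placed in the myeloid list, was higher. Of the fibroblast list Thy1 and Pdpn were higher and Postn lower. Ptprc and Thy1 are not confined to the cell types of those lists, so the calls of Ptprc and Thy1 alone do not name a cell type. The part of other cells in the Lyso values was not tested.

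The relapsed lines were compared with WT to ask whether relapse left a stable mark in culture. By edgeR 0 collagen genes were higher and 0 were lower, where 0.0134% and 0.0268% of all tested genes were called. At an unadjusted p under 0.05 there were 4 of 31 (12.9%), where 11% of all tested genes were. The 31 include the 9 genes that passed the filter only through Tumor, and Col5a2 belongs to both the 4 and the 9. DESeq2 called 0 higher and 1 lower, which was Col1a1, where it called 0.315% of all genes higher and 0.362% lower. Col1a1 lay below WT in each line, with a log2 fold change of -1.21 ± 0.35 (adjusted p = 0.254, edgeR). Col5a2 had 26 counts in the lines and 2 in WT, a ratio of 6.14 (1.54 to 53.4, adjusted p = 0.304). Col11a2 gave 0.85 (0.387) and Col18a1 -1.35 (0.389). The 3 lines were unlike one another: ITF1 had the most Col4a5 (75.3 CPM against 24.2 in Rel and 17.8 in ITM), Col5a1, Col12a1 and Col7a1 (14.4 against 1.60 and 1.38), while ITM had the most Col15a1. With 1 library per line such differences have no replicate check.

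Chains that join in a single molecule were compared as ratios per kilobase within each library, so that library size drops out. Col4a1 to Col4a2 was 0.9001, 0.750 and 1.15 in WT, 0.754, 0.635 and 0.740 in ITF1, Rel and ITM, 0.478, 0.595 and 0.547 in Lyso and 1.62, 1.57 and 1.504 in Tumor. Lyso lay below and Tumor above every WT library, by -0.77 and 0.77 on the log2 scale. The exact permutation test (two-sided) gave p = 0.1 for each, the smallest that 3 against 3 libraries allow, and 0.3 after adjustment over 6 comparisons. The relapsed lines overlapped WT (-0.38, exact permutation p = 0.2). Col1a1 to Col1a2 was 1.04, 1.06 and 1.07 in Tumor, a narrow range, against 1.11 ± 0.337 in WT on few counts. In culture it ranged from 0.317 in Rel (exact 95% counting interval 0.155 to 0.610) to 1.92 in ITF1 (1.03 to 3.72), and these intervals do not overlap. The intervals cover counting error only.

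**Figure D4:**
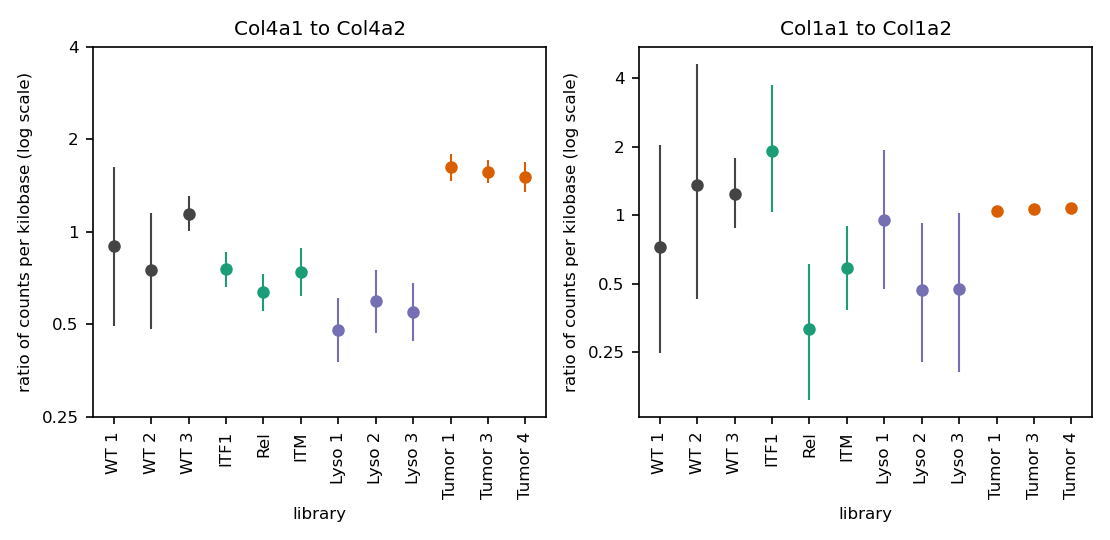
Ratio of counts per kilobase (log axis) of Col4a1 to Col4a2 and of Col1a1 to Col1a2 in each of the 12 libraries, with exact 95% counting intervals as bars. For the type IV pair Tumor lies at 1.504 to 1.62 and Lyso at 0.478 to 0.595, and for the type I pair the Tumor points fall at 1.04 to 1.07 while the cultured points scatter.

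The start regions of the genes were examined for shared letters. RefSeq windows from 250 bases before to 50 after a start were matched for 35 of the 44 genes (38 windows, GRCm38.p6), and motifs were searched on both strands. The GC box GGGCGG was in 60.5% of the collagen windows against 35.7% of all 32851 windows, CCAAT in 34.2% against 37.4% and TATAAA in 13.2% against 13.6%. The STAT-type motif TTCNNNGAA was in 5.26% (Col6a5 and Col28a1) against 8.3%, and the EGR1-type motif GCGTGGGCG in 0% against 0.612%. With 38 windows such low shares cannot show a difference, and no motif was tested. The genes without a window were Col1a1, Col2a1, Col4a3, Col5a2, Col9a3, Col12a1, Col14a1, Col22a1 and Col26a1. Among them Col1a1, Col5a2, Col12a1 and Col14a1 were called higher in Tumor than in WT. Col3a1 is shown because it is the most abundant collagen of Tumor and at or under the floor in all 9 cultured libraries, and because its window holds TATAAA (in capitals). These letters lie near the middle of the stretch shown, not next to the start, and whether they act as a TATA box was not tested. The sequence covers the 250 bases before its start, chr1:45311288-45311537 on the plus strand.
Col3a1 upstream: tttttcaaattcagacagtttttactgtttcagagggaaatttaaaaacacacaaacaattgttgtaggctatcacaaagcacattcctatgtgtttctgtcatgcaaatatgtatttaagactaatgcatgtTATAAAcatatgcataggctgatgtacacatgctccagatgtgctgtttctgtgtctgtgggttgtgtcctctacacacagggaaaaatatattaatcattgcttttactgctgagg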

How the data were processed

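mRNA libraries of B16F10 cells were sequenced, and the authors deposited whole-number read counts per Ensembl gene for 12 libraries, with rows for reads off genes. The submitters' notes name fastp 0.19.6, STAR 2.7.1a, DESeq2 1.24.0 and GRCm38. The strand setting and annotation release are not given in the sources used here, so reads of overlapping genes on opposite strands cannot be told apart (6.07% of Col9a3 and 5.65% of Col4a3 overlap such a gene). Of all reads 36.17% to 39.36% fell on genes and 43.53% to 44.77% on no feature. These off-gene rows were left out of library sizes and tests. Symbols were matched for 54079 of 54232 identifiers with GENCODE vM21. Counts were filtered by group (filterByExpr), scaled by TMM and fitted in 1 model of the 4 groups by edgeR 4.0.16 (glmQLFit, glmQLFTest, R 4.3.3, limma 3.58.1), with the Benjamini-Hochberg adjustment over 14924 genes. Standard errors are the absolute log2 fold change over the root of F. The scripts were tested on simulated data. Levels and exact tests used Python 3.11.15, numpy 2.4.6, scipy 1.17.1, pandas 2.3.3 and matplotlib 3.10.9. Where a group had 0 counts the fold is a bound against 3 counts over the group, and where it had 1 to 3 counts a ratio with an exact counting interval is given. DESeq2 1.42.0, other scalings and filters, a replicate block and each library left out were alternatives. Values per library are given for Col1a1, Col1a2, Col3a1, Col4a1, Col4a2, Col5a1, Col5a2, Col6a1, Col6a2, Col6a3 and the other collagens called in any comparison. Exceptions are Col12a1 and Col14a1, given as ranges in the relapsed lines and Lyso, and Col6a6, given per library in Tumor only. Of each other list at most 5 called genes per comparison with the smallest p are named, plus some of those at or under the floor. A list gene that is not named may therefore also be at or under the floor. Serpinh1 and collagens named outside that rule were chosen after their values were seen. The members and lists were chosen with earlier results of these data known.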

Additional observations from a re-analysis of the deposited data

How the results depend on the processing

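Among the collagens called in a comparison, none turned in direction there under the alternatives in which it was tested. In Tumor against WT the 19 higher and 1 lower calls became 3 lower without the count filter (Col4a5, Col7a1 and Col9a2), 6 higher and 0 lower among the 9 collagens with at least 10 counts in every library compared, and 0 lower with only the 2 groups compared. Leaving out single libraries gave 17 to 21 higher and 1 lower. Against the relapsed lines the lower calls were 4 without the filter and 1 to 2 with a library left out, the higher ones 18 to 21, and with at least 10 counts there were 9 higher and 0 lower. In the relapsed lines against WT, DESeq2 and the fit without the filter each called 1 lower (Col1a1), and 0 were called with any library left out. In Lyso, lower calls were 5 without the filter, 0 with at least 10 counts and 0 by glmTreat, which also gave 0 higher, as did WT 3 as the only control. With libraries left out Lyso had 1 to 2 higher and 0 to 1 lower. Where Col9a2 was absent from the lower calls under a stricter filter or fewer samples it had not passed that filter, and Col1a1 in Lyso likewise had not at 10 counts. The cause of the other shifts was not tested. The shallow WT 1 and WT 2 limit what can be said of genes under 1.70 CPM.

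A replicate block gave 17 higher and 0 lower collagens in Tumor and 3 higher and 1 lower in Lyso, where Col1a1 lost its call (-1.82, adjusted p = 0.0562). The shared numbers do not pair the libraries: same-numbered WT and Lyso libraries had correlations of -0.010 to 0.008 in their deviations, and WT and Tumor 0.083 and 0.003, nor did every library correlate best with its own number.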
